A study of Mus musculus with 12 samples.

Results

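The genes described here act in lipoprotein assembly, transport and clearance and were measured in mouse kidney: Apob, Mttp, Apoe, Apoh, Apom, Apoa1, Apoc1, Lpl, Vldlr and Pltp. They were chosen by name, as the rows of the deposited count table that carry these 10 of its 46882 gene names, and all 10 had enough counts to be tested. RNA was sequenced from whole kidneys of mice of the C57BL/6 strain, 6 to 8 weeks of age, with 6 wild-type animals (WT) and 6 A1cf -/- animals (written A1cf KO). Each library is named by its animal number: 573, 590, 601, 776, 777 and 778 for WT and 574, 584, 588, 591, 602 and 780 for A1cf KO. The series calls the animals biological replicates. The labels do not describe the A1cf allele or the tissues in which it is lost.

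Apolipoprotein B is the structural protein of triglyceride-rich lipoproteins, and MTTP loads lipid onto it while it is made in the endoplasmic reticulum. A1CF was first described as the RNA-binding partner of the cytidine deaminase APOBEC1, which changes a glutamine codon of Apob mRNA to a stop codon so that a shorter protein is made. In the kidney, proximal tubule cells also make and take up apolipoproteins, and lipoprotein lipase, bound to capillary walls, releases fatty acids from passing particles.

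The sequence around that codon is shown because it is the target for which A1CF is best known. It was read from transcript Apob-202 on GRCm38, plus strand, at chr12:8008024-8008098, inside exon 26 of 29. The capital C is the editable cytidine at position 8008054, the first base of codon 2179 of 4505, and the capital run TGATCAGTA is the start of the mooring sequence that the editing complex recognises.
Apob: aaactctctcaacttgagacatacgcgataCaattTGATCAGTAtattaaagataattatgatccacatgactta
The motif TGATCAGTA, searched on the sense strand of protein-coding transcripts, was found in 234 of 21877 genes (1.07%), and with a C 5 bases before its first base in 47 genes (0.215%). Of the 10 genes, Apob was the one that held it. The counts were summed per gene name, so the edited and unedited forms were not distinguished and editing was not analysed here. Exon 26 holds 7467 of the 13934 bases of the transcript (53.6%), and reads from it enter the same count whether the codon is edited or not.

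Libraries held 26671705 to 52899139 counts, with no difference in depth between genotypes that exceeded their spread (p = 0.751, two-sided exact permutation test, n = 6 each). No library was a copy of another: chi-square per degree of freedom was at least 17.3 in all 66 pairs. The WT libraries had 54.5 ± 7.39 CPM (counts scaled to a common TMM library size) of A1cf and the A1cf KO libraries 4.11 ± 1.07 (SD, n = 6 each), so each library matched its label. The kidney label was met by the 10 proximal tubule markers, whose summed level was 13735 to 18246 CPM in WT and 14878 to 19038 CPM in A1cf KO. The animal numbers form 2 series, 573 to 602 (3 WT and 5 A1cf KO) and 776 to 780 (3 WT and 1 A1cf KO), which are uneven between genotypes. The labels do not say what the series stand for.

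Per transcript length, the 10 genes spanned a wide range in WT kidney. On the TPM scale (counts divided by counted exon length and scaled to a common total), the secreted lipocalin gene Apom came first with 224 ± 43.8 TPM, followed by Lpl with 185 ± 33.0 and Apoe with 154 ± 22.8 (SD, n = 6). Apob followed with 44.8 ± 7.09 TPM, then Vldlr with 21.3 ± 2.09, Apoh with 18.2 ± 5.95 and Mttp with 14.9 ± 1.86. Apoc1, Pltp and Apoa1 were lowest, with 6.05 ± 3.96, 4.74 ± 1.54 and 3.40 ± 0.69 TPM. Neighbours in this order overlapped in their single libraries, except that Apoe lay above Apob and Apob above Vldlr in every library of each genotype. In A1cf KO, Lpl (219 ± 67.1 TPM) stood before Apom (199.9 ± 39.4 TPM), and the other 8 genes kept their places. Lpl and Apom overlapped in both genotypes.

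**Figure D1:**
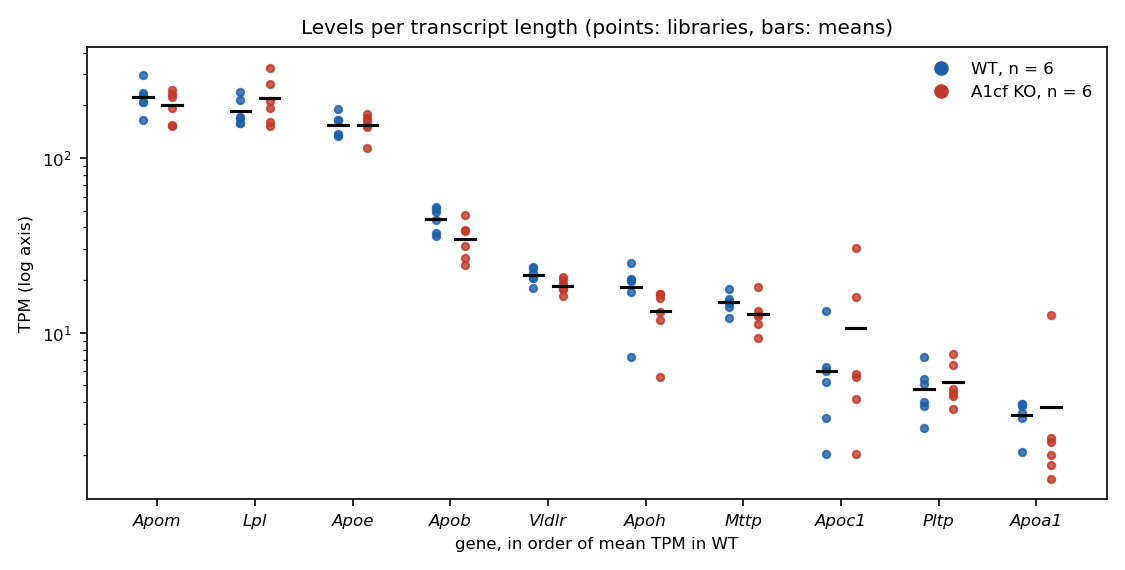
TPM of each of the 10 genes on a log axis, with 1 point per library (6 WT, 6 A1cf KO) and a bar at each genotype's mean. Apom, Lpl and Apoe lie highest, Apob stands alone below them, and Apoc1, Pltp and Apoa1 are lowest. Apoc1 and Apoa1 spread widely in A1cf KO.

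None of the 10 genes passed the threshold between genotypes. In edgeR's quasi-likelihood test with Benjamini-Hochberg adjustment over 16910 genes, 0 of 10 had an adjusted p under 0.05, against 0.0473% of all genes tested (0.0355% lower and 0.0118% higher in A1cf KO). At an unadjusted p under 0.05 the count was 1 of 10 (Apob), against 10.4% of all genes, and no gene had genotypes that did not overlap, against 0.840%. The count at an unadjusted p was not stable: leaving out 1 library gave 0 (WT 573 or 601, or A1cf KO 602 or 780) to 3 (A1cf KO 584 or 588). With the animal series as a covariate it was 4 of 10, against 12.9% of all genes. Of the 10 fold changes, 5 were below 0, against 50.8% of all genes, and their median log2 fold change was -0.03, beside -0.0030 over all genes. DESeq2 and limma-voom likewise called 0 of 10. Changes are given as A1cf KO relative to WT with the 95% interval of the fit, and bulk RNA cannot tell fewer cells of a type from less RNA per cell.

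Apob and Mttp are the pair needed to build a lipoprotein particle. Apob ranged from 221 to 333 CPM in WT (median 268) and from 159 to 274 CPM in A1cf KO (median 216). Below the WT mean lay 5 of 6 A1cf KO libraries, but the genotypes overlapped: A1cf KO 584 was as high as the middle of WT, and WT 590 and WT 778 were lower than A1cf KO 588 and 591. The means were 269 ± 40.6 and 214 ± 46.0 CPM (SD, n = 6 each), a log2 fold change of -0.33 (95% interval -0.62 to -0.040; SE 0.13; edgeR quasi-likelihood adjusted p = 0.418). The interval spans folds of 0.652 to 0.972. With the animal series as a covariate the value was -0.43 (edgeR adjusted p = 0.212), and among animals 573 to 602 alone it was -0.32 (edgeR adjusted p = 0.681).

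Mttp, the microsomal triglyceride transfer protein, ranged from 34.0 to 45.7 CPM in WT (median 40.0) and from 26.9 to 46.9 CPM in A1cf KO (median 34.2). The highest and the lowest of the 12 values were both in A1cf KO, 584 and 780. Its log2 fold change was -0.17 (95% interval -0.41 to 0.07; SE 0.11; edgeR adjusted p = 0.632). Without A1cf KO 584 it was -0.26 and without A1cf KO 780 -0.10, and with the series as a covariate -0.29 (edgeR adjusted p = 0.209). Of its 6206 exon bases, 457 (7.36%) are shared with Trmt10a on the other strand.

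Mttp also lay apart between the animal series. In WT, animals 573, 590 and 601 had 43.8 ± 1.73 CPM and animals 776, 777 and 778 had 36.0 ± 1.79 CPM (SD, n = 3 each), with no overlap, and A1cf KO 780 was the lowest A1cf KO library. In a model with genotype and series, the log2 difference of animals 776 to 780 from 573 to 602 was -0.34 (edgeR adjusted p = 0.0693), and -0.28 in the WT libraries alone (edgeR adjusted p = 0.178). None of the 10 genes passed this test, against 2.90% of all genes, and 2 of 10 had an unadjusted p under 0.05 (Mttp and Apom), against 18.4%. Without A1cf KO 584 Mttp passed it (-0.31, edgeR adjusted p = 0.0138), and without A1cf KO 602 Apoc1 passed it (1.51, edgeR adjusted p = 0.0278). DESeq2 called Mttp (adjusted p = 0.0179) and Apom (adjusted p = 0.0457) between the series.

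**Figure D2:**
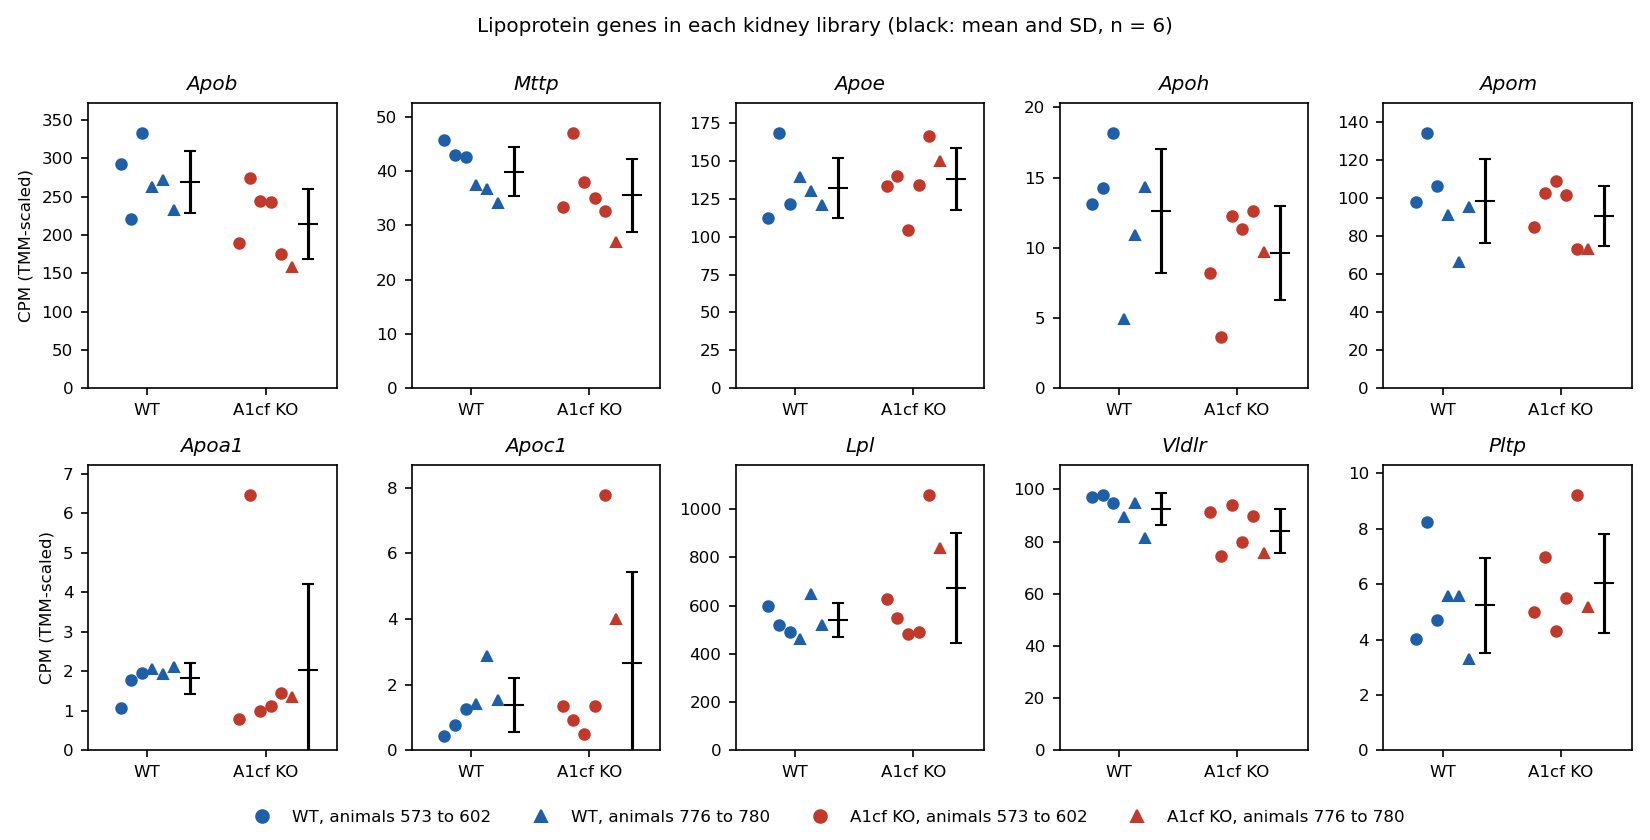
CPM of each of the 10 genes by library, with circles for animals 573 to 602, triangles for animals 776 to 780, and the mean ± SD (n = 6) beside each genotype; each y axis starts at 0, and bars that reach below 0 end there. The genotypes overlap in all 10 panels. A1cf KO 584 stands far above the rest for Apoa1, and A1cf KO 602 and 780 lie highest for Apoc1 and Lpl.

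Apoe, a ligand for lipoprotein receptors that many cell types make, differed little. It ranged from 112 to 168 CPM in WT (median 126) and from 105 to 166 CPM in A1cf KO (median 137). The ranges lay almost on top of each other, with a log2 fold change of 0.06 (95% interval -0.17 to 0.30; edgeR adjusted p = 0.878), which ran from 0.0026 without A1cf KO 602 to 0.15 without WT 590. Pltp, which transfers phospholipids between particles, ranged from 3.29 to 8.22 CPM in WT (median 5.13) and from 4.32 to 9.20 CPM in A1cf KO (median 5.33). Its log2 fold change was 0.20 (95% interval -0.27 to 0.67; edgeR adjusted p = 0.787), and ran from 0.044 without A1cf KO 602 to 0.38 without WT 590. Of the Pltp exon bases, 495 of 2562 (19.3%) are shared with Ctsa on the other strand. Reads there were not told apart by strand, and how this altered the Pltp count was not tested.

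Apoe and Pltp varied together within genotypes, and both varied with macrophage markers. After subtracting each genotype's mean log2 CPM, Pearson's r between Apoe and Pltp was 0.84 and Spearman's rho 0.84 over 12 libraries (permutation within genotype, two-sided p = 0.00138 and 0.00211). Adjusted over the 45 pairs of the 10 genes these permutation p-values were 0.0621 and 0.0461. Without WT 590 and A1cf KO 588, r was 0.77, and without WT 590 and A1cf KO 602 it was 0.63. Among animals 573 to 602 (n = 8, too few remained in the other series) r was 0.96. With the mean of 10 macrophage markers, r was 0.84 for Apoe (permutation p = 5.8e-04) and 0.83 for Pltp (permutation p = 0.00182), with rho 0.83 (p = 0.0027) and 0.78 (p = 0.00739). Adjusted over the 80 relations of 8 marker lists with 10 genes, p was 0.0464 and 0.0728 for r and 0.186 for each rho. Without WT 590 and WT 776 these r values were 0.79 and 0.78. The macrophage markers summed to 123 to 181 CPM in WT and 141 to 198 CPM in A1cf KO. Of their fold changes 1 of 10 was below 0 and 9 above, where 50.8% of all genes lay below 0. The threshold was passed by 0, against 0.0473% of all genes. At an unadjusted edgeR p under 0.05 were 3 of 10, against 10.4%, and in 1 the genotypes did not overlap, against 0.840%. Fat markers also varied with both genes: r was 0.72 and rho 0.68 for Apoe (permutation p = 0.0221 and 0.0185, adjusted 0.209 and 0.186), and 0.57 and 0.64 for Pltp (permutation p = 0.0553 and 0.0245, adjusted 0.313 and 0.188). Without A1cf KO 588 and 602 these r values were 0.33 and 0.38, and among animals 573 to 602 they were 0.75 and 0.64. The part of macrophages and fat in the values of Apoe and Pltp was not tested.

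Apom, Apoh and Apoa1 encode proteins of high-density lipoprotein and plasma. Apom, which carries sphingosine 1-phosphate, ranged from 66.3 to 134 CPM in WT (median 96.6) and from 73.1 to 109 CPM in A1cf KO (median 93.0). The A1cf KO range lay inside the WT range, and the log2 fold change was -0.12 (95% interval -0.43 to 0.19; edgeR adjusted p = 0.811). It was -0.011 without WT 590, -0.21 without WT 777 and -0.26 among animals 573 to 602. Between the animal series its log2 difference was -0.40 (edgeR adjusted p = 0.119). With proximal tubule and hepatocyte markers the genotype-centred r of Apom was 0.70 and 0.62 (permutation p = 0.0135 and 0.0373, adjusted 0.189 and 0.271). With endothelium, loop of Henle and fat markers it was -0.69, -0.68 and -0.57. Their permutation p was 0.0142, 0.0235 and 0.0191, adjusted 0.189, 0.209 and 0.209. Among animals 573 to 602 r was 0.35, 0.26, -0.27, -0.61 and -0.48 in the same order. The part of these cells in the Apom values was not tested.

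Apoh, the phospholipid-binding beta-2-glycoprotein I, ranged from 4.94 to 18.1 CPM in WT (median 13.7) and from 3.68 to 12.6 CPM in A1cf KO (median 10.5). All 6 A1cf KO libraries lay below the WT mean of 12.6 CPM, while WT 776 was lower than all but 1 of them. The log2 fold change was -0.39 (95% interval -1.01 to 0.22; edgeR adjusted p = 0.669), -0.23 without A1cf KO 584 and -0.65 among animals 573 to 602. The 2 lowest libraries, WT 776 and A1cf KO 584, were also the highest for the sum of 5 red blood cell markers, at 388 and 419 CPM. Over all 12 libraries the genotype-centred r of Apoh with these markers was -0.79 and rho -0.35 (permutation p = 0.0129 and 0.294, adjusted 0.189 and 0.636 over 80 relations), and r was -0.72 among animals 573 to 602. Without WT 776 and A1cf KO 584 r was -0.045, so the relation rested on those 2 libraries. With hepatocyte, proximal tubule and endothelium markers Apoh had rho 0.72, 0.66 and -0.68. Their permutation p was 0.0174, 0.0292 and 0.014, adjusted 0.186, 0.188 and 0.186. The r values were 0.55, 0.59 and -0.56 (permutation p = 0.0809, 0.0597 and 0.0547, adjusted 0.341, 0.313 and 0.313). Among animals 573 to 602 r was 0.73, 0.73 and -0.65. The part of these cells in the Apoh values was not tested.

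Apoa1, the main protein of high-density lipoprotein, had few counts, 40 to 235 per library. It ranged from 1.07 to 2.12 CPM in WT (median 1.94) and from 0.785 to 6.45 CPM in A1cf KO (median 1.23). A1cf KO 584 stood far above all other libraries, and the other 5 A1cf KO libraries lay below 5 of the 6 WT libraries. The log2 fold change was 0.15 (95% interval -0.82 to 1.11; edgeR adjusted p = 0.933), and without A1cf KO 584 its sign turned, to -0.68 (edgeR adjusted p = 0.352).

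Lpl, Vldlr and Apoc1 act where particles are cleared. Lpl ranged from 464 to 647 CPM in WT (median 519.9) and from 482 to 1057 CPM in A1cf KO (median 587). Of the A1cf KO libraries, 4 lay within the WT range and 2 above it, A1cf KO 780 at 837 and A1cf KO 602 at 1057 CPM. The log2 fold change was 0.32 (95% interval -0.06 to 0.69; edgeR adjusted p = 0.546), and 0.14 without A1cf KO 602. Apoc1, a small apolipoprotein that inhibits lipases, ranged from 0.446 to 2.86 CPM in WT (median 1.34) and from 0.501 to 7.76 CPM in A1cf KO (median 1.35). Its medians were almost equal, and its log2 fold change of 0.92 (95% interval -0.35 to 2.19; edgeR adjusted p = 0.624) was 0.20 without A1cf KO 602 and 1.497 among animals 573 to 602.

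The libraries high in Lpl and Apoc1 were also high in fat markers. The 8 fat markers summed to 61.9 to 531 CPM in WT and 43.8 to 719 CPM in A1cf KO, with 0 of 7 tested markers past the threshold and a median log2 fold change of 0.82. The 3 highest sums were those of A1cf KO 602 (719 CPM), WT 777 (531 CPM) and A1cf KO 780 (424 CPM), the libraries that were also highest for Apoc1 and for Lpl. Adipoq, which is defining for fat cells, had 62.6 CPM in A1cf KO 602 and 0.083 CPM in A1cf KO 588, where Apoc1 and Lpl were the lowest of A1cf KO. The genotype-centred r of Apoc1 with the fat marker mean was 0.75 and rho 0.67 (permutation p = 0.00838 and 0.0186, adjusted 0.189 and 0.186 over 80 relations), 0.58 without A1cf KO 588 and 602 and 0.74 among animals 573 to 602. For Lpl they were 0.57 and 0.46 (permutation p = 0.14 and 0.151, adjusted 0.466 and 0.554), and r was 0.13 without those 2 libraries. The part of fat in the Lpl and Apoc1 values was not tested.

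Vldlr, the receptor for very-low-density lipoprotein, had the narrowest interval of the 10. It ranged from 81.4 to 97.6 CPM in WT (median 94.7) and from 74.6 to 93.9 CPM in A1cf KO (median 84.9). The A1cf KO libraries 584, 591 and 780 lay below every WT library, and the other 3 lay inside the WT range. The log2 fold change was -0.14 (95% interval -0.29 to 0.01; edgeR adjusted p = 0.518). Vldlr lies on chromosome 19 (27216484 to 27254231 in mm10), 4.61 Mb from A1cf, and an effect of linked sequence cannot be told apart from one of the A1cf genotype.

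**Figure D3:**
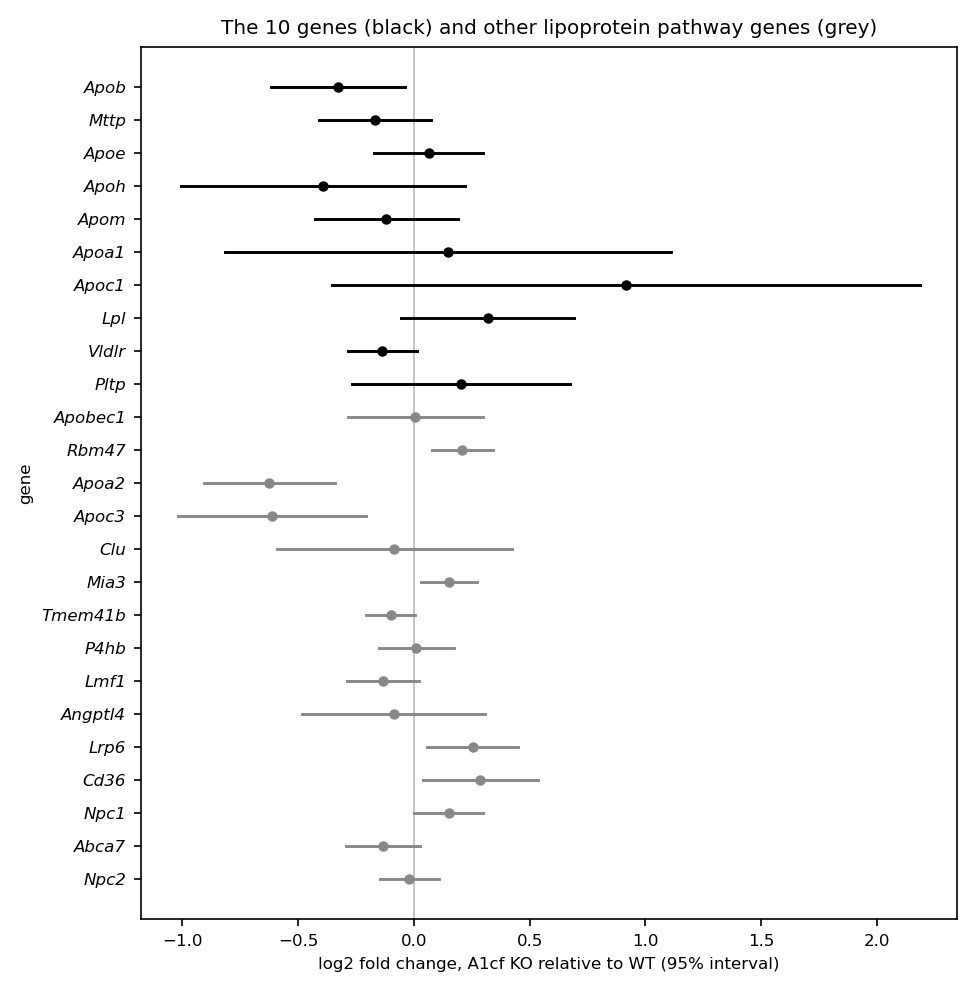
Log2 fold change of A1cf KO relative to WT (points) with its 95% interval, not adjusted for the number of genes, from edgeR's quasi-likelihood fit for the 10 genes (black) and 15 other named genes of the pathway (grey; A1cf is left out). The interval of Apob (-0.62 to -0.040) lies below 0, that of each of the other 9 black points includes 0, and Apoc1 and Apoa1 have the widest.

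Apob and Mttp followed each other from library to library. Their genotype-centred r was 0.76 and rho 0.67 over 12 libraries (permutation p = 0.00806 and 0.0293, adjusted p = 0.0907 and 0.188 over 45 pairs). Without A1cf KO 584 and 780 the r was 0.51, and among animals 573 to 602 it was 0.66, so the relation rested in part on those 2 libraries. Mttp and Apom had r 0.63 and rho 0.80 (permutation p = 0.0235 and 0.0041, adjusted 0.165 and 0.0461), with r 0.61 without A1cf KO 584 and 780 and 0.45 among animals 573 to 602. Apom and Apoc1 varied in opposite directions, with r -0.77 and rho -0.81 (permutation p = 0.00328 and 0.00347, adjusted 0.0699 and 0.0461), -0.83 without WT 590 and WT 777, and -0.66 among animals 573 to 602. Mttp and Apoc1 also varied in opposite directions, with the largest rho of the 45 pairs, -0.88, and r -0.69 (permutation p = 0.00061 and 0.0293, adjusted 0.0274 and 0.165). Their r was -0.70 without A1cf KO 584 and 780 and -0.57 among animals 573 to 602. With proximal tubule markers Mttp had r 0.52 and rho 0.69 (permutation p = 0.0927 and 0.0233, adjusted 0.371 and 0.188). With endothelium markers Mttp had r -0.52 and rho -0.60 (permutation p = 0.0576 and 0.047, adjusted 0.313 and 0.235). Among animals 573 to 602 these r values turned sign, to -0.27 and 0.39. The part of these cells in the Mttp values was not tested.

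**Figure D4:**
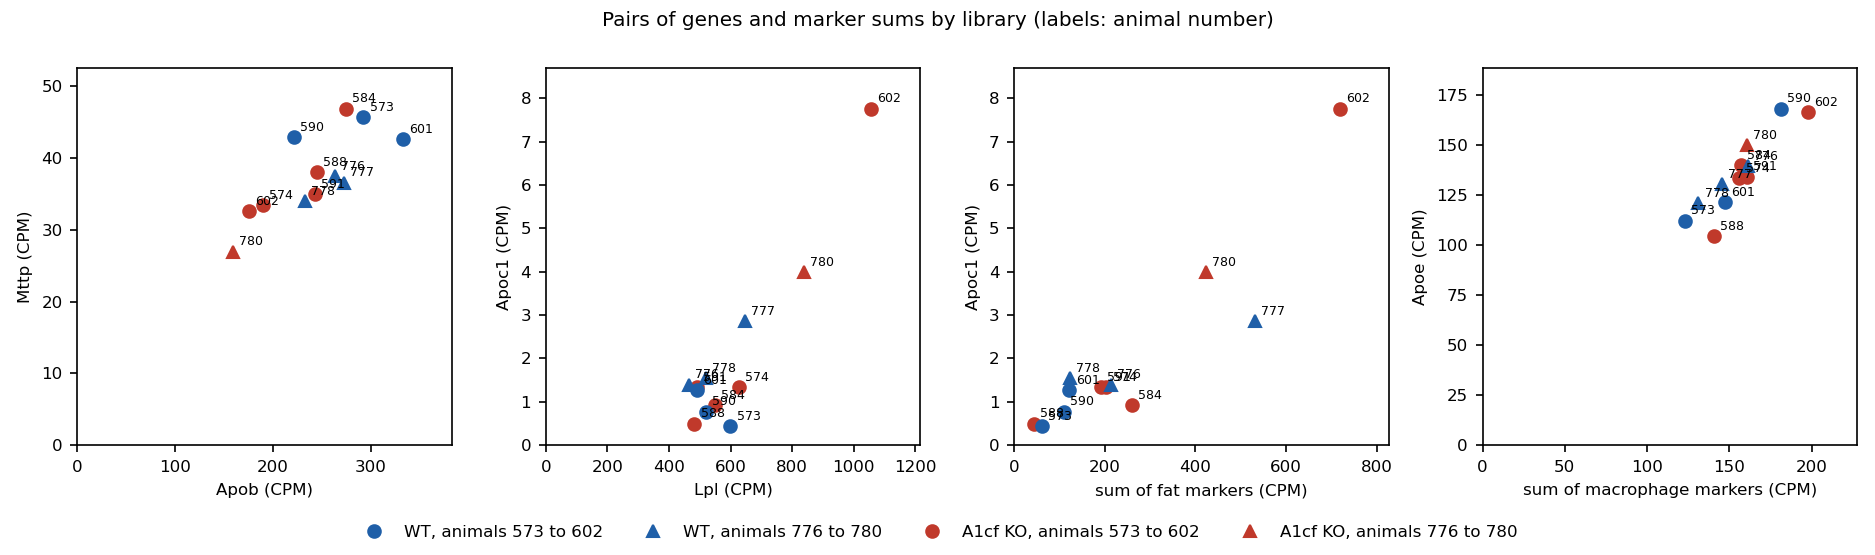
CPM by library (labels: animal number) for Mttp against Apob, Apoc1 against Lpl, Apoc1 against the sum of fat markers, and Apoe against the sum of macrophage markers. Apob and Mttp are both lowest in A1cf KO 780, A1cf KO 602 and 780 and WT 777 lead the 2 Apoc1 panels, and WT 590 and A1cf KO 602 lead the Apoe panel.

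Among 13705 genes with a mean of at least 1 CPM, the genes whose genotype-centred log2 CPM was most like that of Apob over the 12 libraries were the kinase gene Map3k2 (r = 0.97), the predicted gene Gm9776 (0.87) and Aph1b (0.87), a gamma-secretase subunit. For Mttp they were the growth factor gene Mdk (0.90), the phospholipase C gene Plch1 (0.89) and Gm10845 (0.89). For Lpl they were the steroid dehydrogenase gene Hsd17b2 (0.92), Ccdc64b (0.85) and the kinesin gene Kif20b (0.84). These are the highest of 13705 values each, given as a description. Without subtracting the genotype means, r was 0.46 for Map3k2, 0.66 for Plch1 and 0.51 for Ccdc64b, and at least 0.73 for the others.

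The other genes of the pathway were read from lists of names. Among factors named for Apob editing, 1 of 10 tested passed, A1cf itself, which fell (log2 fold change -3.72, edgeR adjusted p = 6.02e-09). In WT and A1cf KO the deaminase gene Apobec1 had 7.12 ± 1.08 and 7.14 ± 1.38 CPM in the same order (log2 fold change 0.0055, 95% interval -0.29 to 0.30). Rbm47, whose protein can also serve as the partner of APOBEC1, had 159.9 ± 13.1 and 185 ± 10.7 CPM (0.21, edgeR adjusted p = 0.296).

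Of the other apolipoproteins, 0 of 12 tested passed, 6 of 12 fold changes were below 0 and their median was 0.02. Apoa2, a high-density lipoprotein protein, ranged from 3.68 to 5.63 CPM in WT and from 2.77 to 3.77 CPM in A1cf KO, and 5 of 6 A1cf KO libraries lay below every WT library. Its log2 fold change was -0.62 (edgeR adjusted p = 0.144), and DESeq2 called it (adjusted p = 0.00303). Apoc3, an inhibitor of lipoprotein lipase, had 13.3 ± 4.05 and 8.69 ± 1.77 CPM (-0.61, edgeR adjusted p = 0.308). Clu, the most abundant per length, had 229 ± 92.2 and 216 ± 62.0 CPM.

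Among genes of particle assembly and secretion, 0 of 17 passed, with 9 fold changes below 0 and a median of -0.00062. The 2 with the smallest p were Mia3, needed to load large cargo at endoplasmic reticulum exit sites (log2 fold change 0.15, edgeR adjusted p = 0.380), and Tmem41b, a lipid scramblase (-0.10). P4hb, the partner subunit of MTTP, had 805 ± 67.4 and 811 ± 76.8 CPM in WT and A1cf KO.

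Among lipolysis genes 0 of 9 passed, with 5 fold changes below 0 and a median of -0.09. Lmf1, which matures the lipase, had a log2 fold change of -0.13, and Angptl4, an inhibitor of lipoprotein lipase, had 293 ± 74.0 and 276 ± 71.3 CPM.

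Among receptors and uptake genes 0 of 19 passed, with 7 fold changes below 0 and a median of 0.03. The 2 with the smallest p were Lrp6, a receptor of the LDL receptor family (log2 fold change 0.25, edgeR adjusted p = 0.375), and the fatty acid transporter gene Cd36, also the most abundant per length (499 ± 58.5 and 609 ± 113 CPM; 0.29, edgeR adjusted p = 0.412). Among efflux and remodelling genes 0 of 11 passed, with 4 below 0 and a median of 0.06. Npc1 and Npc2 carry cholesterol out of lysosomes and had log2 fold changes of 0.15 and -0.02, and the transporter gene Abca7 had -0.13.

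Liver is a main source of apolipoproteins, so hepatocyte markers were read as well. The 12 hepatocyte names, which include Apoa2 and Apoc3, summed to 133 to 236 CPM in WT and 100.03 to 192 CPM in A1cf KO. Of 9 tested, 7 fold changes were below 0, against 50.8% of all genes, with a median of -0.34. The threshold was passed by 0, against 0.0473% of all genes. At an unadjusted edgeR p under 0.05 were 2 of 9, against 10.4% of all genes: Apoa2 and Apoc3 themselves, and no other hepatocyte marker. Members were detected at unequal levels: in WT, Serpina1a had 50.9 ± 33.2 CPM, Fga 49.2 ± 12.54, Ttr 36.5 ± 15.3 and Alb 6.57 ± 1.89. The bile acid enzyme gene Cyp7a1 had 0 counts in all 12 libraries. With 3 counts as the limit, this allows at most 0.11 CPM in the shallowest library if counts are independent. Counting used no pair option, so the limit would be higher if both reads of a pair were counted. The 8 adrenal cortex names summed to 4.26 to 6.40 CPM in WT and 4.73 to 6.41 CPM in A1cf KO. Of these, Star had 4.14 ± 0.77 and 3.48 ± 0.43 CPM, Akr1b7 1.18 ± 0.54 and 1.98 ± 0.58 CPM (log2 fold change 0.75, edgeR adjusted p = 0.409), and Cyp11b2 0 counts in all 12 libraries. Loop of Henle markers were lower in A1cf KO, with sums of 4814 to 7102 CPM in WT and 3620 to 4627 CPM in A1cf KO. Of their fold changes 8 of 8 were below 0, against 50.8% of all genes, and 0 passed the threshold. At an unadjusted edgeR p under 0.05 were 8 of 8, against 10.4% of all genes. In 2 of 8 the genotypes did not overlap, against 0.840%. The part of hepatocytes, adrenal cortex and loop of Henle in the values of the 10 genes was not tested.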

How the data were processed

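The values are read counts per gene name that the authors deposited in 1 table for 12 whole kidney libraries, with gene coordinates and exon length. Per the file headers, the authors counted with featureCounts 1.5.0-p2 over GENCODE M8 exons grouped by gene name, from duplicate-marked alignments and with no strand, pair or duplicate option, so reads in exons shared by genes on opposite strands were not assigned by strand. The mm10 build, STAR and DESeq2 were part of the authors' work per the submitters' processing notes. Whether the kit marks strand is not stated in the labels.

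The main test was the quasi-likelihood F test of edgeR 4.0.16 (R 4.3.3) on TMM-scaled counts of 16910 genes kept by filterByExpr, with genotype alone in the model. The Benjamini-Hochberg adjustment ran over all of them (threshold 0.05). The animal series was tested in a model with genotype. CPM use TMM-scaled library sizes, TPM the table's exon lengths, and log2 CPM a prior count of 2. Correlations used 100000 permutations of libraries within genotype. Depth sets the precision of low genes: intervals and zero-count limits cover what the fit or counting gives.

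The 10 genes and the lists were chosen with earlier results of these data known. Besides the 10 genes, A1cf, Apobec1 and Rbm47 were named, in each list every gene past the threshold or else the 2 with the smallest p and the 1 with the highest TPM, and for Apob, Mttp and Lpl the 3 most alike genes. A gene that this rule takes is not reported here. The lists held 23 other apolipoproteins, 18 assembly and secretion, 11 lipolysis, 19 receptor and uptake, 13 efflux and 11 editing genes, besides markers of proximal tubule, loop of Henle, endothelium, macrophage, fat, hepatocyte, adrenal cortex and red blood cells. Alternatives were upper-quartile scaling, DESeq2 size factors, no mitochondrially encoded genes, no filter, a stricter filter (1 CPM in 6 libraries), DESeq2 1.42.0, limma-voom (limma 3.58.1), the series as a covariate, animals 573 to 602 only, and leaving out each library. The fits were also run on simulated data, with genotype changes larger than those of the 10 genes in the main fit and no series difference. Smaller changes were not covered there.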

Additional observations from a re-analysis of the deposited data

Results flagged for a closer look

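Within each genotype, the highest and the lowest library of each of the 10 genes were checked for a gap to the nearest other library that is large against the range of the genotype's 6 libraries on the log2 CPM scale. Chance flags about 1 in 20 such groups, and 3 of 20 were flagged. Apoh was low in A1cf KO 584, at 3.68 CPM, where the next lowest A1cf KO library had 8.22 CPM. Apoa1 was high in the same library, at 6.45 CPM, where the next highest had 1.46 CPM. Apoa1 was also low in WT 573, at 1.07 CPM, with the next lowest at 1.78 CPM. A1cf KO 584 had 419 CPM of red blood cell markers, the highest sum of the 12 libraries, and 4.22 CPM of the hepatocyte marker Alb, the second lowest of A1cf KO. From the same hepatocyte list it had 3.10 CPM of Apoa2 and 8.83 CPM of Apoc3, beside A1cf KO medians of 3.13 and 9.26 CPM. The part of red blood cells or hepatocytes in the Apoh and Apoa1 values was not tested.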

How the results depend on the processing

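Under all 21 alternatives for the genotype comparison, 0 of the 10 genes passed the threshold, and their fold changes kept their sign except for Apoa1, which turned without A1cf KO 584 (-0.68) and under limma-voom. Signs also turned for the near-zero values of Apobec1, Clu, P4hb, Angptl4 and Npc2 in some alternatives. The median of the 10 genes ran from -0.13 to 0.07 (the latter without WT 590). Over all genes, edgeR called 8 (2 higher and 6 lower), DESeq2 163 (85 higher and 78 lower), and edgeR with the series covariate 24 (11 higher and 13 lower); leaving out 1 library gave 6 to 12. Between the animal series, edgeR called 490 genes, DESeq2 1088 and the WT libraries alone 120, and leaving out 1 library gave 140 (without A1cf KO 780) to 696 (without A1cf KO 584); 262, 261 and 308 were called without WT 590, 776 and 777. Of the 10 genes, 0 passed there, 2 with DESeq2, and 0 to 1 when 1 library was left out. The cause of these differences was not tested. No paired analysis was possible because the animal numbers in the labels are not shared between genotypes. The counts of Apoa1 (40 to 235) and Apoc1 (23 to 276) limit what could be seen for them, and their intervals include changes in both directions.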

Other observations

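Between the animal series, genes that were named after their values were seen moved in 2 of the lists around the 10 genes; 2.90% of all genes tested passed this comparison. Gpihbp1, which anchors lipoprotein lipase to the capillary wall, was the 1 of 9 tested lipolysis genes past the threshold, at 8.60 ± 1.74 CPM in WT animals 573 to 601 and 17.1 ± 1.03 CPM in WT animals 776 to 778 (SD, n = 3 each), with A1cf KO 780 at 16.4 CPM. Its log2 difference between the series was 0.86 (edgeR quasi-likelihood adjusted p = 0.00122). Stab1, a scavenger receptor of endothelium and macrophages, was the 1 of 19 receptor genes past the threshold, at 22.6 ± 2.69 and 35.1 ± 2.85 CPM (log2 difference 0.72, edgeR adjusted p = 2.93e-04), with A1cf KO 780 at 46.2 CPM. Of 8 endothelial markers 6 passed the same test, with a median log2 difference of 0.71, and their part in these values was not tested. Lpl itself had 537 ± 55.8 and 543 ± 94.1 CPM in the same WT animals (log2 difference 0.15, edgeR adjusted p = 0.720).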
